A study of Mus musculus with 14 samples.

Results

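Elovl4, Cers3, Cyp4f39, Abca12, Alox12b, Aloxe3, Pnpla1, Lipn, Sdr9c7 and Nipal4 are genes of the lipid barrier of the outer skin, most of them acting in the synthesis, transport or processing of acylceramide. They were taken by gene symbol from the deposited table of read counts per gene, which holds 56953 genes, and all 10 were found. All 10 also passed the filter on low counts that left 16027 genes for testing. The table covers 14 libraries of mouse skin RNA made with a QuantSeq forward kit, which yields 1 tag for the 3′ end of a polyadenylated RNA. Counts thus do not grow with transcript length, and levels are compared between libraries and not between genes.

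The libraries form 6 groups of a genotype and a treatment. Knockout (KO) mice were NEDD8fl/fl, K14-CreERT pos, meaning that Nedd8 was flanked by loxP sites and an inducible Cre recombinase was driven by the keratin 14 promoter of basal keratinocytes. They gave 2 libraries with imiquimod (IMQ) and 3 with DMSO. Cre-negative mice, NEDD8fl/fl, K14-CreERT neg, carried the same floxed alleles without the recombinase and gave 2 IMQ and 3 DMSO libraries. Wild-type (WT) C57BL/6J mice gave 2 IMQ and 2 DMSO libraries. NEDD8 is a ubiquitin-like protein whose attachment to cullins activates ubiquitin ligases, and imiquimod, a Toll-like receptor agonist, gives mice a psoriasis-like skin inflammation. Aldara cream with 5% imiquimod was put on daily between day 0 and day 7, on the back or the right ear, the site of each library being unlabelled. The labels name an induction, on 5 days before the start, for KO mice alone, and no group had the cream base without imiquimod, so KO contrasts include the induction and IMQ contrasts include the cream base. The series design text describes a NEDD8 inhibitor on wild-type skin and the extraction text speaks of cells. The genotypes and treatments used here are those on the labels of the libraries.

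Terminally differentiating keratinocytes make acylceramides, ceramides with an ultra-long fatty acid whose far end is esterified to linoleate. The fatty acid is elongated, hydroxylated at its ω end and joined to a sphingoid base, linoleate is then transferred onto it, and the product is loaded into lamellar bodies and secreted. Lipoxygenases and a dehydrogenase oxidise the linoleate so that the ceramide can be bound to proteins of the cornified envelope, and in humans loss of most of these genes causes congenital ichthyosis.

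Total counts lay between 5552954 and 34362477 per library. KO DMSO replicate 1 and Cre-negative IMQ replicate 2 stood apart with 17.5% and 19.1% of their reads on 18S ribosomal RNA, above a limit of 15% that the other 12 libraries stayed under. By Xist and Y-linked reads, KO IMQ and Cre-negative IMQ libraries were male, KO DMSO and all WT libraries were female, and 2 Cre-negative DMSO libraries were male and 1 was female. KO IMQ against Cre-negative IMQ, KO DMSO against WT DMSO and WT IMQ against WT DMSO are therefore matched for sex, and the other contrasts are not. Nedd8 itself passed the threshold in 0 of 8 comparisons, with a log2 fold change of -0.47 ± 0.40 in KO DMSO over Cre-negative DMSO skin and adjusted p = 0.403 (edgeR's quasi-likelihood test). The labels do not say whether the 3′ tag lies in the deleted stretch, so this is no check of the deletion. All 11 markers of suprabasal and granular keratinocytes, the cells that make these lipids, had reads in every library, and their summed level is given beside the results.

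On GRCm39, the build of the deposited positions, Elovl4 (ENSMUSG00000032262.14) lies on chromosome 9 at 83660745 to 83688305 on the minus strand. Cyp4f39 (ENSMUSG00000061126.6) lies on chromosome 17 at 32671697 to 32712294 and Pnpla1 (ENSMUSG00000043286.13) on the same chromosome at 29077385 to 29109283, both on the plus strand. Cers3 (ENSMUSG00000030510.12) lies on chromosome 7 at 66393252 to 66473439 on the plus strand, and Abca12 (ENSMUSG00000050296.15) on chromosome 1 at 71281435 to 71454069 on the minus strand. On chromosome 11 are Aloxe3 (ENSMUSG00000020892.11) at 69016722 to 69039941 and Alox12b (ENSMUSG00000032807.6) at 69047815 to 69060618 on the plus strand, and Nipal4 (ENSMUSG00000020411.3) at 46038982 to 46057335 on the minus strand. Sdr9c7 (ENSMUSG00000040127.14) lies on chromosome 10 at 127734387 to 127747630, and Lipn (ENSMUSG00000024770.15) on chromosome 19 at 34044758 to 34062318, both on the plus strand.

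The promoters of Cers3, Sdr9c7 and Nipal4 are shown because the response of these 3 genes differed between KO and Cre-negative skin. That of Elovl4 is shown because its mean was lower in KO DMSO than in Cre-negative DMSO skin, short of the threshold, where theirs were higher. Each promoter is the 250 bases before the transcription start from RefSeq on GRCm38.p6, 5′ to 3′ on the strand of the gene. RefSeq windows were matched for 9 of the 10 genes, all but Aloxe3. Capitals mark the letters TTGCNNCA on either strand. They were searched with the C/EBP factors in mind but are not a looser form of the C/EBP palindrome TTGCGCAA. Cers3 lies at chr7:66743254-66743503 on the plus strand, Sdr9c7 at chr10:127898285-127898534 on the plus strand, Nipal4 at chr11:46166360-46166609 on the minus strand and Elovl4 at chr9:83806306-83806555 on the minus strand.
Cers3: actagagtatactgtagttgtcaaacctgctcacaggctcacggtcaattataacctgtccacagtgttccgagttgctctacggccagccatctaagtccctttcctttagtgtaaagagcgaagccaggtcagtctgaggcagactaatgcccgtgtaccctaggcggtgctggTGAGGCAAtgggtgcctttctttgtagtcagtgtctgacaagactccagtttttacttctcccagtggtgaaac
Sdr9c7: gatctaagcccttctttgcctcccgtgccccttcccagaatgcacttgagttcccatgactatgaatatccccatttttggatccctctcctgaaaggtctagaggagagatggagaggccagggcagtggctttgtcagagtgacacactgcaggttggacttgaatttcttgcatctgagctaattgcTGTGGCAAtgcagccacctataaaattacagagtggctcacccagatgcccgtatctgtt
Nipal4: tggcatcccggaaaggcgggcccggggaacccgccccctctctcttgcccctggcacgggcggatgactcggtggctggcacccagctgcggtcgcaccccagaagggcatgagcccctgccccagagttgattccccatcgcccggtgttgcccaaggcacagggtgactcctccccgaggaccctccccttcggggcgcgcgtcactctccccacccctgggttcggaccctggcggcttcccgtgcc
Elovl4: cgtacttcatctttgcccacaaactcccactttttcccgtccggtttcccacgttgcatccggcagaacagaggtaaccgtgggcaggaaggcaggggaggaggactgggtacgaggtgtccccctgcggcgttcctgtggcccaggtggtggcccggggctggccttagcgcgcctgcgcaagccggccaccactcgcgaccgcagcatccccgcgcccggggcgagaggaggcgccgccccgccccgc

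The letters TTGCNNCA stood 74 to 67 bases before the start of Cers3 and 60 to 53 bases before that of Sdr9c7, in both on the strand opposite to the gene. These were 2 of the 9 windows, and 9.59% of all 32851 RefSeq promoter windows of the same length hold these letters. The C/EBP palindrome TTGCGCAA, of which TTGCNNCA is not a looser form, was in 0 of the 9 windows and in 0.164% of all. The AP-1 letters TGANTCA were in 1 of 9, that of Lipn, and in 6.75% of all. KLF letters GGGTGTGG were in 1 of 9, that of Alox12b, and in 3.2% of all, and their relaxed form GGGNGTGG, which contains the stricter one, was in 3 of 9 (Cyp4f39, Pnpla1 and Alox12b) and in 15.9% of all. Letters for GRHL factors, AACCGGTT and the relaxed AACCNGNTT, were in 0 of 9, and in 0.116% and 2.01% of all. The windows of Elovl4 and Nipal4 are rich in G and C, at 69.6% and 71.6%, with 25 and 19 CpG dinucleotides. Those of Cers3 and Sdr9c7 are each at 49.6% with 6 and 2 CpG, and the median of all windows is 52.4% with 6 CpG. A match of letters is a description of the window and not a binding site.

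Imiquimod raised 8 of the 10 genes in WT skin, 3 in Cre-negative skin and 0 in KO skin. In WT IMQ over WT DMSO skin Cyp4f39, Cers3, Pnpla1, Abca12, Alox12b, Sdr9c7, Nipal4 and Lipn rose and 0 fell, where 9.59% of all tested genes rose and 11.8% fell. In Cre-negative IMQ over Cre-negative DMSO skin Cers3, Sdr9c7 and Nipal4 rose and 0 fell, where 8.15% of all tested genes rose and 10.1% fell. The difference between the WT and the Cre-negative response was not tested. In KO skin 0 of 10 passed the threshold in either direction in edgeR's quasi-likelihood test, in DESeq2 or in voom, where 8.56% of all genes rose and 2.52% fell in edgeR. An unadjusted p under 0.05 was found there for 2 of 10 (Sdr9c7 and Nipal4), beside 26.4% of all tested genes. Fewer cells of a type and less RNA per cell cannot be told apart in bulk skin, here and in every result below.

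Without imiquimod, Cers3, Sdr9c7 and Nipal4 were higher in KO skin, and Lipn was lower than in Cre-negative skin. In KO DMSO over Cre-negative DMSO skin these were 3 of 10 higher, against 14% of all genes, and 1 lower, against 15.7% of all genes. KO DMSO over WT DMSO skin, which uses the same KO libraries, had the same 3 of 10 higher, against 11.3% of all genes, and 0 lower, against 14.4%. With imiquimod Elovl4, Sdr9c7 and Lipn were lower in KO IMQ than in Cre-negative IMQ skin, 3 of 10 against 6.33% of all genes, and 0 of 10 were higher, against 11.6%. Between Cre-negative DMSO and WT DMSO skin 0 of 10 genes and 0 of all 16027 passed the threshold, although 1120 genes had an unadjusted p under 0.05, and DESeq2 called 144 and voom 195, with 0 of the 10 among them by either tool. The 10 log2 fold changes in that contrast of controls lay between 0.16, for Cers3, and 1.0, for Lipn.

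Groups without overlapping libraries were more frequent than calls. The libraries did not overlap, with the group named first above, for 9 of 10 genes in WT IMQ over WT DMSO skin, beside 29.5% of all genes, and for 5 of 10 in Cre-negative IMQ over Cre-negative DMSO skin, beside 24.8%. They were above for 5 and below for 2 in KO DMSO over Cre-negative DMSO skin, beside 21.8% and 26.5%, and above for 6 in KO DMSO over WT DMSO skin, beside 24.2%. They were below for 6 in KO IMQ over Cre-negative IMQ skin, beside 25.3%, and below for 3 in KO IMQ over KO DMSO skin, beside 18.9%. Cre-negative DMSO libraries were above WT DMSO libraries for 2 of 10, Pnpla1 and Sdr9c7, beside 16.1% of all genes.

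Some of these counts moved with the libraries that stood apart, with sex and with scaling. Without the libraries high in 18S RNA, Sdr9c7 at 1.01 and Lipn at -1.48 missed the threshold in KO DMSO over Cre-negative DMSO skin. In KO IMQ over Cre-negative IMQ skin the same step put Cyp4f39 at -1.42, Abca12 at -2.31 and Nipal4 at -1.29. That step leaves Cre-negative IMQ replicate 1 as the only library of its group, and with that library left out instead the same 3 values were -0.13, -0.16 and -0.30, all short of the threshold. Leaving out the libraries high in 18S RNA let Abca12 at 1.26 and Alox12b at 1.36 pass in KO DMSO over WT DMSO skin, and Abca12 at -1.48 in KO IMQ over KO DMSO skin. Abca12 and Alox12b were then both at 1.69 in Cre-negative IMQ over Cre-negative DMSO skin, with the same single Cre-negative IMQ library. With a term for sex 1 call of the 10 genes was left in KO DMSO over Cre-negative DMSO skin, that of Cers3, and Sdr9c7 at 1.47, Nipal4 at 1.46 and Lipn at -1.91 missed the threshold. Only Cre-negative DMSO skin held both sexes, so the sex term rests on its 1 female and 2 male libraries. In this contrast it in effect sets the KO DMSO libraries against the female Cre-negative DMSO library, replicate 3, alone. An effect of sex cannot be told apart there from that of this library. Scaling by library size alone, which put the median of all genes in WT IMQ over WT DMSO skin at -0.76 in place of -0.09, left 3 of the 8 rises there, those of Cers3 at 2.24, Sdr9c7 at 2.16 and Nipal4 at 1.45. The same scaling ended the calls for Sdr9c7 in KO DMSO over Cre-negative DMSO skin, at 0.95, for Nipal4 in KO DMSO over WT DMSO skin, at 1.07, for Elovl4 in KO IMQ over Cre-negative IMQ skin, at -1.76, and for Nipal4 in Cre-negative IMQ over Cre-negative DMSO skin, at 0.71. With only the groups compared in the fit, Cyp4f39 at 1.51, Pnpla1 at 1.59 and Lipn at 1.92 missed the threshold in WT IMQ over WT DMSO skin.

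**Figure D1:**
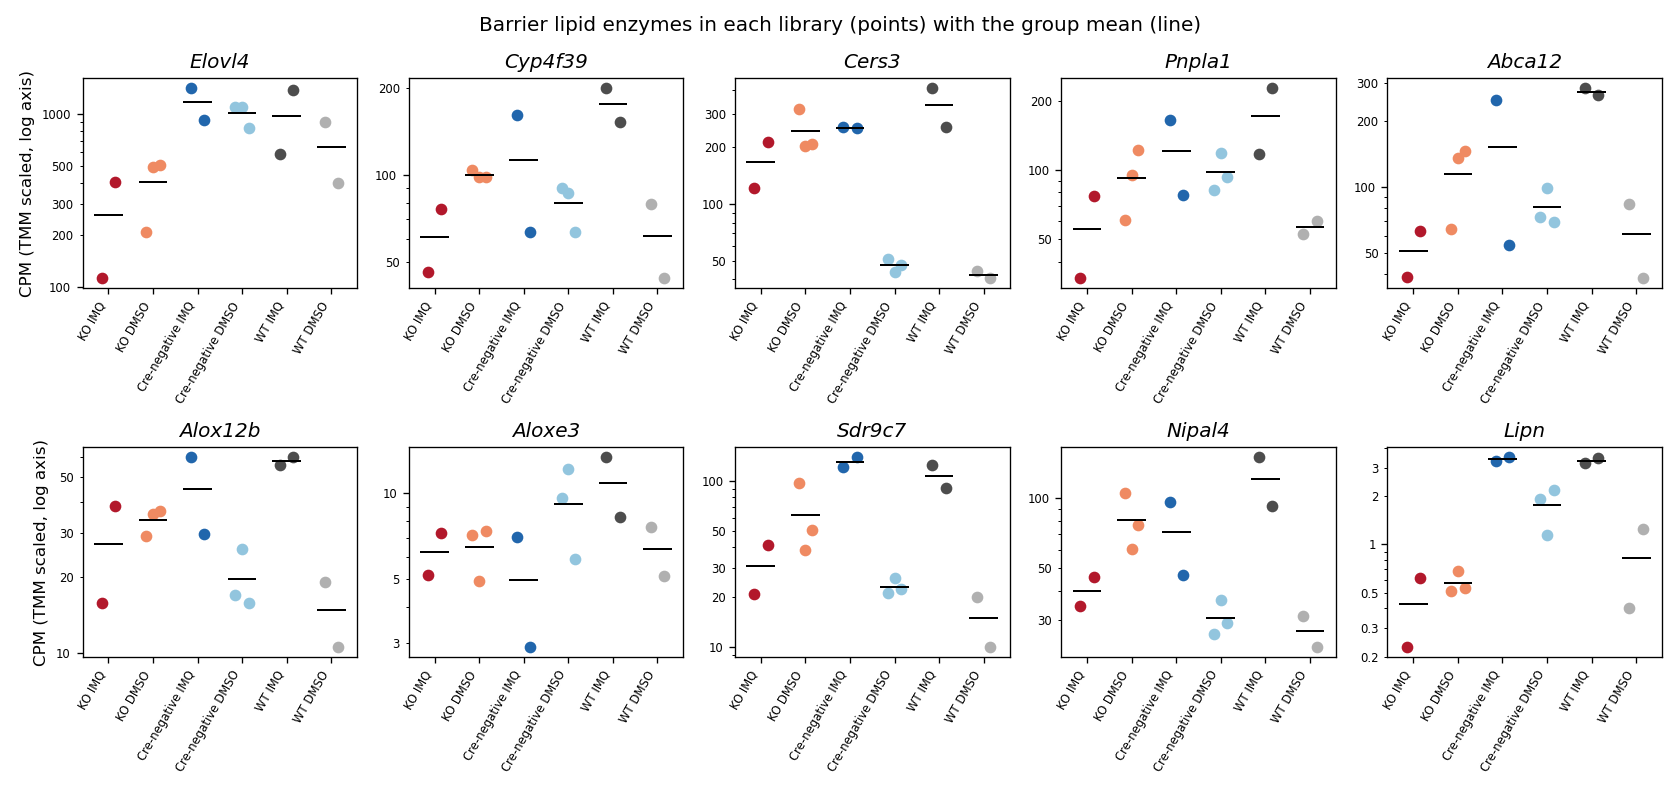
Each panel shows 1 gene, each point 1 library and each line the mean of a group, in TMM-scaled CPM on a log axis, with KO, Cre-negative and WT skin from left to right. Cers3 stood between 122 and 412 CPM in the KO and IMQ libraries and between 40.5 and 51.4 CPM in the Cre-negative DMSO and WT DMSO libraries.

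Levels are given as CPM, the count of a gene scaled to library size after TMM normalisation. Elovl4, the elongase that makes the ultra-long fatty acids, had 112 and 407 CPM in KO IMQ skin and 207, 495 and 504 CPM in KO DMSO skin, against 1417 and 918 CPM in Cre-negative IMQ skin, 1103, 1103 and 828 CPM in Cre-negative DMSO skin, 591 and 1370 CPM in WT IMQ skin, and 896 and 398 CPM in WT DMSO skin. Every KO library was below every Cre-negative library, while KO and WT overlapped. In KO IMQ over Cre-negative IMQ skin Elovl4 was lower, with a log2 fold change of -2.17 ± 0.65 (SE) and adjusted p = 0.0345. The value was -1.52 without KO IMQ replicate 1, -1.88 without Cre-negative IMQ replicate 1 and -2.41 without Cre-negative IMQ replicate 2, and each of these missed the threshold, while it was -3.40 without KO IMQ replicate 2, which passed. In KO DMSO over Cre-negative DMSO skin it was -1.33 ± 0.52 with adjusted p = 0.0679, a difference that missed the threshold in edgeR and passed it in DESeq2 at 0.0286 and in voom at 0.0197. Its log2 fold changes for IMQ over DMSO were -0.63 ± 0.58 in KO, 0.21 ± 0.57 in Cre-negative and 0.60 ± 0.63 in WT skin, all short of the threshold.

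Cyp4f39, the cytochrome P450 that hydroxylates the ω end of the fatty acid, had 46.2 and 75.7 CPM in KO IMQ skin and 104, 97.9 and 98.0 CPM in KO DMSO skin, against 161 and 63.5 CPM in Cre-negative IMQ skin, 89.6, 86.1 and 63.4 CPM in Cre-negative DMSO skin, 199 and 152 CPM in WT IMQ skin, and 79.4 and 43.7 CPM in WT DMSO skin. It rose in WT IMQ over WT DMSO skin with a log2 fold change of 1.52 ± 0.44 and adjusted p = 0.0269. That call was lost without WT IMQ replicate 1, at 1.30, and without WT DMSO replicate 2, at 1.15. In the other pairs of groups its log2 fold changes lay between -0.88 and 0.70 and missed the threshold. Cyp4f39 belongs to a family of similar genes, and how the authors' counting treated reads that map to several places is not given in the sources used here.

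Cers3, the ceramide synthase that joins the ultra-long fatty acid to the sphingoid base, had 122 and 213 CPM in KO IMQ skin and 319, 202 and 209 CPM in KO DMSO skin, against 255 and 252 CPM in Cre-negative IMQ skin, 51.4, 43.6 and 47.7 CPM in Cre-negative DMSO skin, 412 and 256 CPM in WT IMQ skin, and 44.3 and 40.5 CPM in WT DMSO skin. Every KO library and every IMQ library was above the highest of the 5 Cre-negative and WT DMSO libraries. Cers3 was 5.12-fold higher in KO DMSO than in Cre-negative DMSO skin (log2 fold change 2.36 ± 0.31, adjusted p = 0.000129) and 5.74-fold higher than in WT DMSO skin (2.52 ± 0.36, adjusted p = 0.000346). With imiquimod it rose 7.87-fold in WT skin (2.98 ± 0.38, adjusted p = 0.000351) and 5.34-fold in Cre-negative skin (2.42 ± 0.33, adjusted p = 0.000371). In KO skin the log2 fold change of IMQ over DMSO was -0.54 ± 0.33 with adjusted p = 0.321. KO IMQ skin was at -0.60 ± 0.36 relative to Cre-negative IMQ skin, with adjusted p = 0.276. The 4 calls were kept under every alternative tried, each left-out library included.

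Pnpla1, the transacylase that puts linoleate onto the ω-hydroxyceramide, had 33.9 and 77.1 CPM in KO IMQ skin and 60.9, 94.7 and 123 CPM in KO DMSO skin, against 165 and 78.2 CPM in Cre-negative IMQ skin, 81.8, 119 and 92.9 CPM in Cre-negative DMSO skin, 117 and 227 CPM in WT IMQ skin, and 53.0 and 60.3 CPM in WT DMSO skin. It rose 3.03-fold in WT IMQ over WT DMSO skin (log2 fold change 1.60 ± 0.49, adjusted p = 0.0351). The call did not hold without WT IMQ replicate 2, at 1.14, without WT DMSO replicate 1, at 1.59, or without WT DMSO replicate 2, at 1.70. An antisense gene, Pnpla1os, overlaps Pnpla1, and it had 14 reads over all libraries against 21235 for Pnpla1.

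Abca12, the transporter that loads lamellar bodies with glucosylated ceramides, had 38.9 and 63.2 CPM in KO IMQ skin and 64.2, 135 and 146 CPM in KO DMSO skin, against 249 and 54.3 CPM in Cre-negative IMQ skin, 73.4, 99.5 and 69.7 CPM in Cre-negative DMSO skin, 284 and 263 CPM in WT IMQ skin, and 83.9 and 38.4 CPM in WT DMSO skin. The 2 Cre-negative IMQ libraries stood far apart, and the lower was the library high in 18S RNA. Abca12 rose 4.47-fold in WT IMQ over WT DMSO skin (log2 fold change 2.16 ± 0.62, adjusted p = 0.0260). That call was lost without WT IMQ replicate 1, at 2.10, and without WT DMSO replicate 2, at 1.71, and the value was 2.92 without WT DMSO replicate 1. KO IMQ over Cre-negative IMQ skin gave -1.57 ± 0.61 with adjusted p = 0.0947, and this value turned on single libraries. Without Cre-negative IMQ replicate 1, the library at 249 CPM, it gave -0.16 with adjusted p = 0.887, while without Cre-negative IMQ replicate 2 it gave -2.25 with adjusted p = 0.0248. It also passed without a filter on low counts, at -1.54.

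Alox12b, the lipoxygenase that oxidises the linoleate of acylceramide first, had 15.7 and 38.5 CPM in KO IMQ skin and 29.0, 35.7 and 36.7 CPM in KO DMSO skin, against 60.3 and 29.8 CPM in Cre-negative IMQ skin, 17.0, 26.0 and 15.8 CPM in Cre-negative DMSO skin, 56.1 and 60.2 CPM in WT IMQ skin, and 19.1 and 10.5 CPM in WT DMSO skin. It rose 3.95-fold in WT IMQ over WT DMSO skin (log2 fold change 1.98 ± 0.48, adjusted p = 0.0116), a call lost without WT DMSO replicate 2, at 1.61. All 3 KO DMSO libraries were above all 5 Cre-negative and WT DMSO libraries, but the differences missed the threshold, at 0.79 ± 0.38 with adjusted p = 0.131 over Cre-negative and 1.2 ± 0.44 with adjusted p = 0.0585 over WT. DESeq2 at 0.0279 and voom at 0.0151 passed the difference from WT DMSO skin.

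Aloxe3, the lipoxygenase that acts on the product of Alox12b, lies 7873 bases from Alox12b on chromosome 11 and was the steadier of these neighbours. Its levels were 5.17 and 7.26 CPM in KO IMQ skin and 7.13, 4.95 and 7.38 CPM in KO DMSO skin, against 7.03 and 2.89 CPM in Cre-negative IMQ skin, 9.62, 12.1 and 5.90 CPM in Cre-negative DMSO skin, 13.4 and 8.26 CPM in WT IMQ skin, and 7.62 and 5.15 CPM in WT DMSO skin. It passed the threshold in 0 of 8 comparisons, with log2 fold changes between -0.93 and 0.86.

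Sdr9c7, the dehydrogenase that acts after both lipoxygenases, had 20.8 and 41.0 CPM in KO IMQ skin and 97.3, 38.3 and 50.8 CPM in KO DMSO skin, against 122 and 140 CPM in Cre-negative IMQ skin, 21.2, 25.9 and 22.3 CPM in Cre-negative DMSO skin, 124 and 91.1 CPM in WT IMQ skin, and 20.1 and 9.95 CPM in WT DMSO skin. All 3 KO DMSO libraries lay between the DMSO and the IMQ libraries of the Cre-negative genotype, and both KO IMQ libraries were below both Cre-negative IMQ libraries. It rose 7.20-fold in WT IMQ over WT DMSO skin (log2 fold change 2.85 ± 0.49, adjusted p = 0.00204) and 5.65-fold in Cre-negative IMQ over Cre-negative DMSO skin (2.50 ± 0.42, adjusted p = 0.00156). The WT value was 3.53 without WT DMSO replicate 1, and both calls were kept without any 1 library. KO DMSO skin was higher than Cre-negative DMSO skin by 1.42 ± 0.38 on the log2 scale (adjusted p = 0.0143), a call lost without KO DMSO replicate 1, at 0.95, and without Cre-negative DMSO replicate 1, at 1.36.

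The same gene was higher in KO DMSO than in WT DMSO skin by 2.05 ± 0.46 (adjusted p = 0.00577), a difference of Sdr9c7 that missed the threshold without WT DMSO replicate 2, at 1.62, and was 2.67 without WT DMSO replicate 1. In KO IMQ over Cre-negative IMQ skin the direction was the opposite, at -2.08 ± 0.48 (adjusted p = 0.0100). That call was lost without KO IMQ replicate 1, at -1.68, and without Cre-negative IMQ replicate 2, at -1.95, and the value was -2.69 without KO IMQ replicate 2.

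Nipal4, a membrane protein with magnesium transporter homology that is needed for acylceramide processing, had 34.3 and 45.7 CPM in KO IMQ skin and 105, 60.1 and 76.4 CPM in KO DMSO skin, against 96.1 and 46.8 CPM in Cre-negative IMQ skin, 25.9, 36.4 and 29.1 CPM in Cre-negative DMSO skin, 150 and 92.4 CPM in WT IMQ skin, and 31.0 and 22.8 CPM in WT DMSO skin. Every KO DMSO library was above every other DMSO library. It was 2.63-fold higher in KO DMSO than in Cre-negative DMSO skin (log2 fold change 1.40 ± 0.33, adjusted p = 0.00740) and 2.99-fold higher than in WT DMSO skin (1.58 ± 0.39, adjusted p = 0.0102), the second lost without WT DMSO replicate 2, at 1.37. Imiquimod raised it 4.52-fold in WT skin (2.18 ± 0.42, adjusted p = 0.00369), a call kept without any 1 library. Its rise in Cre-negative skin, 1.23 ± 0.36 with adjusted p = 0.0322, was lost without Cre-negative IMQ replicate 1, at 0.71, without Cre-negative DMSO replicate 1, 2 or 3, at 1.12, 1.37 and 1.2, and with a term for sex, at 1.2 with adjusted p = 0.0836. The last is no separate loss, since the sex term here comes close to leaving out Cre-negative DMSO replicate 3, the female library of that group.

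Lipn, an acid lipase of the late differentiating epidermis, was counted with only 2 to 68 reads a library. It had 0.228 and 0.620 CPM in KO IMQ skin and 0.509, 0.679 and 0.536 CPM in KO DMSO skin, against 3.30 and 3.50 CPM in Cre-negative IMQ skin, 1.90, 1.15 and 2.19 CPM in Cre-negative DMSO skin, 3.2 and 3.43 CPM in WT IMQ skin, and 0.401 and 1.24 CPM in WT DMSO skin. Every KO library was below every Cre-negative library, as for Elovl4. The difference was -3.01 ± 0.63 on the log2 scale with IMQ (adjusted p = 0.00621), from 10 reads in KO and 75 in Cre-negative skin. It missed the threshold without KO IMQ replicate 1, at -2.44, and was -3.89 without KO IMQ replicate 2. With DMSO it was -1.58 ± 0.50 (adjusted p = 0.0306), a call lost without each of the 3 KO DMSO libraries, at -1.53, -1.70 and -1.48, without Cre-negative DMSO replicate 1 or 3, at -1.51 and -1.39, and without a filter on low counts, at -1.57. The rise of Lipn in WT IMQ over WT DMSO skin, 1.93 ± 0.56 with adjusted p = 0.0282, was lost without WT IMQ replicate 1 or 2, at 1.98 in each case, and without WT DMSO replicate 1, at 1.5, and was 3.02 without WT DMSO replicate 2.

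**Figure D2:**
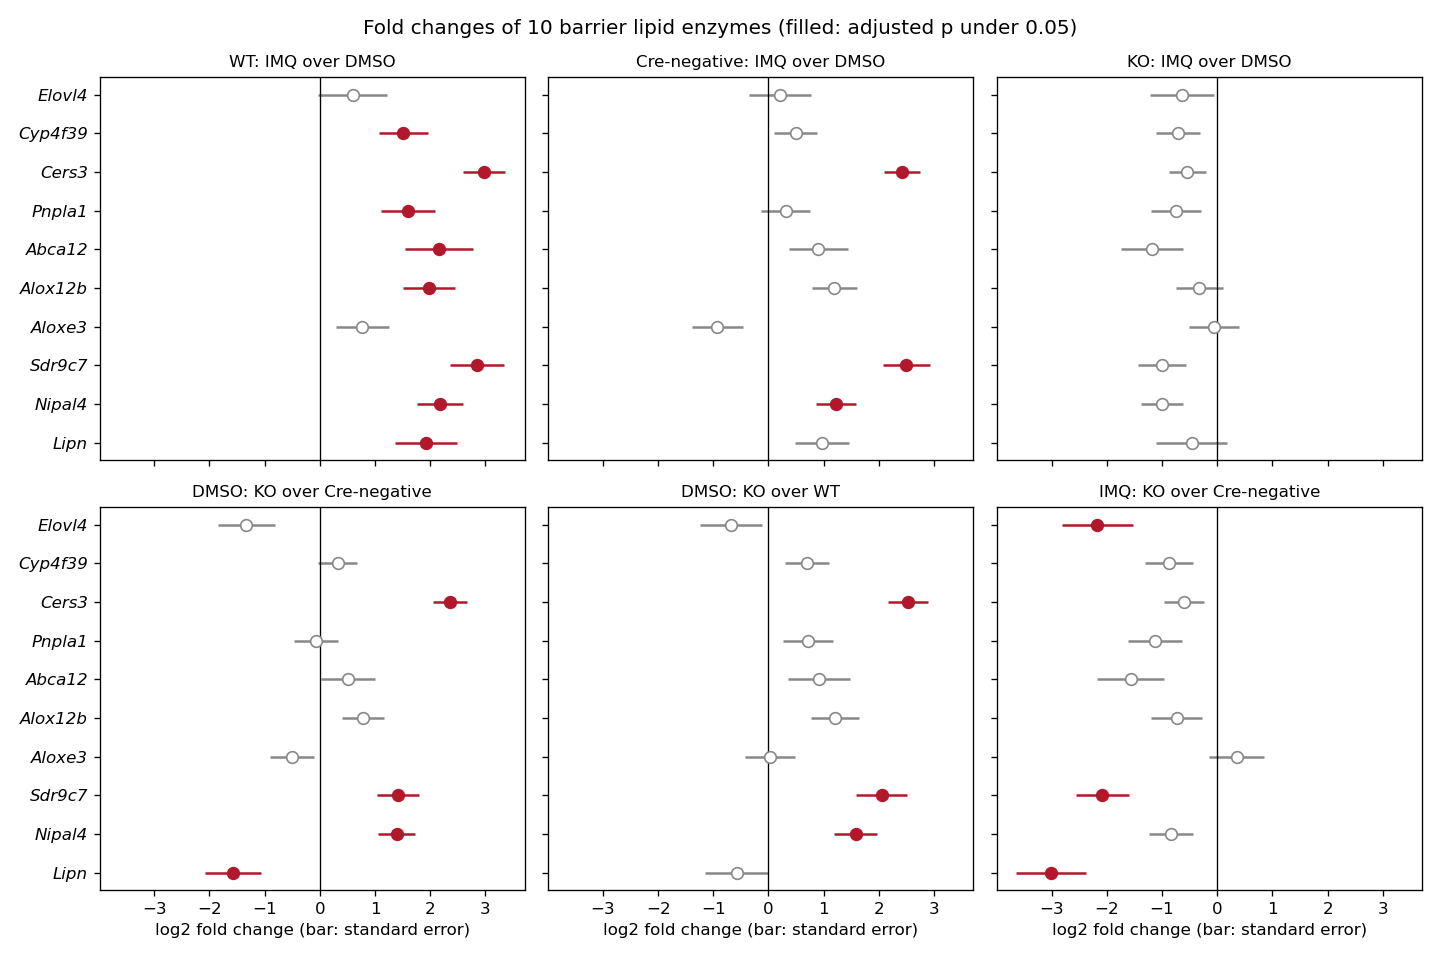
Each panel is 1 comparison and each point the log2 fold change of 1 gene with its standard error, filled where the adjusted p is under 0.05. With IMQ over DMSO 8 genes were past the threshold in WT skin, 3 in Cre-negative skin and 0 in KO skin, where all 10 values lay between -1.18 and -0.06. Scaling by library size alone turned Aloxe3 to 0.14 there.

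The response to imiquimod was then compared between KO and Cre-negative skin in a test of the difference itself. Cers3, Sdr9c7 and Nipal4 responded less in KO skin, and the other 7 genes missed the threshold. The lower response was called for 3 of 10 genes, against 9.63% of all tested genes, and 0 of 10 had a higher response, against 14%. The difference of log2 fold changes was -2.96 ± 0.47 for Cers3 (adjusted p = 0.00163), -3.50 ± 0.61 for Sdr9c7 (adjusted p = 0.00260) and -2.23 ± 0.53 for Nipal4 (adjusted p = 0.0101). These 3 differences draw on the higher KO DMSO level as well as on the IMQ libraries, since the same KO DMSO libraries serve as the base. The calls for Cers3 and Sdr9c7 were kept without any 1 library, Sdr9c7 reaching -4.10 without KO IMQ replicate 2. The call for Nipal4 was lost without KO IMQ replicate 1, at -2.04, with library size alone, at -1.46, and with the sex term, at -2.30. Without the libraries high in 18S RNA, a step that leaves 1 library in Cre-negative IMQ skin, Cyp4f39 was at -1.78, Abca12 at -3.17 and Alox12b at -2.12. Abca12, at -2.08 ± 0.78 with adjusted p = 0.0672, passed without KO DMSO replicate 1, at -2.34, without Cre-negative IMQ replicate 2, at -2.78, and by DESeq2 and without a filter on low counts, at -2.04 and -2.05, but was -0.66 with adjusted p = 0.511 without Cre-negative IMQ replicate 1. Cyp4f39, at -1.20 ± 0.56, passed without Cre-negative IMQ replicate 2, at -1.70, and was -0.44 without Cre-negative IMQ replicate 1. Alox12b, at -1.52 ± 0.60, passed without KO IMQ replicate 2, at -2.31, and was -0.80 with adjusted p = 0.447 under scaling by library size alone.

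**Figure D3:**
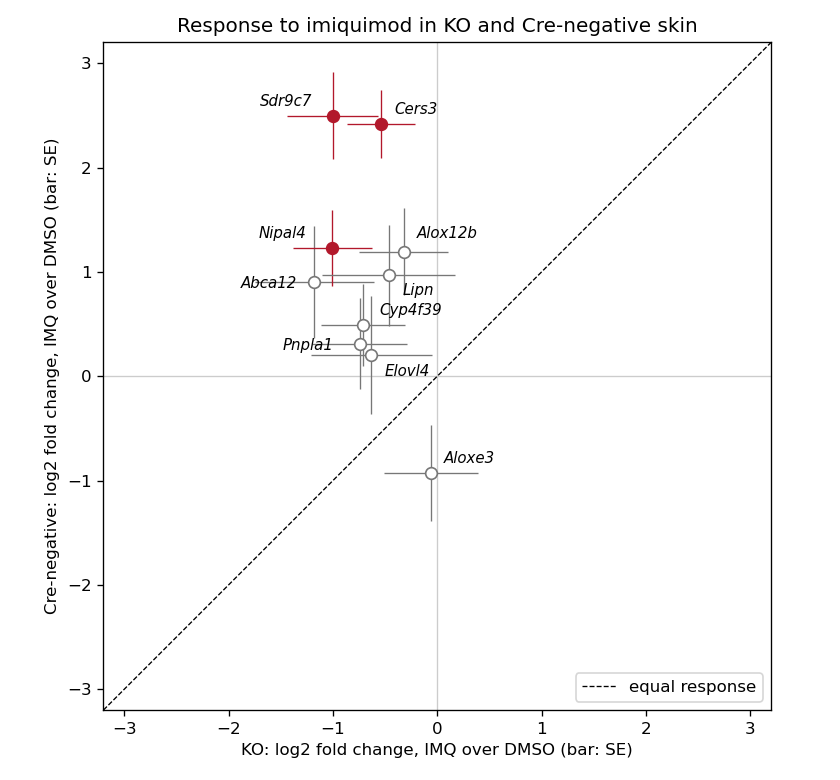
Log2 fold changes of IMQ over DMSO in KO skin (horizontal axis) and Cre-negative skin (vertical axis), with standard errors, filled where the difference between the responses passed the threshold. Cers3, Sdr9c7 and Nipal4, at -0.54, -1.0 and -1.01 in KO skin and 2.42, 2.50 and 1.23 in Cre-negative skin, lie far above the line of equal response.

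Markers of the cells that make these lipids also differed between the groups, and not always in the direction of the 10 genes. The summed level of the 11 suprabasal and granular keratinocyte markers, from Krt1 and Krt10 to loricrin and filaggrin, was 252 to 529 CPM in KO IMQ skin and 727 to 1607 CPM in KO DMSO skin, against 2405 to 9834 CPM in Cre-negative IMQ skin, 16068 to 30405 CPM in Cre-negative DMSO skin, 4310 to 7200 CPM in WT IMQ skin, and 12092 to 18562 CPM in WT DMSO skin. In KO IMQ over Cre-negative IMQ skin 9 of 11 were lower and 0 higher, and in KO DMSO over Cre-negative DMSO skin 6 were lower and 1, Tgm3, was higher. Cers3, Sdr9c7 and Nipal4 were thus higher in the KO DMSO libraries while this sum was lower there. With IMQ over DMSO 3 of the 11 were higher and 2 lower in WT skin, 2 higher and 3 lower in Cre-negative skin, and 0 higher and 2 lower in KO skin, and the sums of the IMQ libraries were below those of the DMSO libraries in all 3 kinds of skin. The sum weighs abundant keratins most. Krt77 averaged 11918 CPM of a mean sum of 23331 CPM in Cre-negative DMSO skin, and 13.3 CPM in Cre-negative IMQ skin. The median log2 fold change of the 11 was 0.31 in WT, -0.39 in Cre-negative and -1.75 in KO skin. The sum for 3 wound keratins, which keratinocytes switch on when injured or inflamed, was 8000 to 13636 CPM in KO IMQ skin and 20559 to 31952 CPM in KO DMSO skin, against 23292 to 25290 CPM in Cre-negative IMQ skin, 187 to 378 CPM in Cre-negative DMSO skin, 21907 to 26132 CPM in WT IMQ skin, and 133 to 173 CPM in WT DMSO skin. The groups with high wound keratins were those in which Cers3 was high. The part of a shift in cell types in these results was not tested.

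Markers of other cells shifted too. The 5 neutrophil markers summed to 1676 to 3810 CPM in KO IMQ skin and 20.6 to 63.6 CPM in KO DMSO skin, against 48.6 to 53.9 CPM in Cre-negative IMQ skin and 4.92 to 9.11 CPM in Cre-negative DMSO skin. Their sum was 46.7 to 101 CPM in WT IMQ skin and 0.842 to 4.11 CPM in WT DMSO skin. The 4 sebocyte markers summed to at most 1.75 CPM in any KO library, against 187 CPM or more in every other library, and in KO DMSO replicate 1 reads of 1 of the 4 were found. The 5 basal keratinocyte markers summed to 5958 to 9852 CPM in KO IMQ skin and 15434 to 20182 CPM in KO DMSO skin, against 10815 to 13803 CPM in Cre-negative IMQ skin and 3563 to 5093 CPM in Cre-negative DMSO skin. Their sum was 11111 to 14854 CPM in WT IMQ skin and 2318 to 3166 CPM in WT DMSO skin. In the basal and the neutrophil sums, as for Cers3 and the wound keratins, every KO and IMQ library was above every Cre-negative and WT DMSO library. Ly6g, a neutrophil marker, had 0 reads in Cre-negative DMSO and WT DMSO skin. Both endothelial markers, 1 of 3 macrophage and 1 of 4 fibroblast markers were higher in KO IMQ than in Cre-negative IMQ skin, and 0 of 3 T cell, adipocyte or skeletal muscle markers passed there in either direction. In the same contrast 4 of 5 neutrophil, 1 of 5 basal keratinocyte and 1 of 2 melanocyte markers were higher, and 3 of 4 sebocyte markers and 1 of 3 wound keratins were lower. The shares of all genes were 11.6% higher and 6.33% lower. In KO DMSO over Cre-negative DMSO skin all 3 skeletal muscle, 2 of 3 adipocyte, all 4 sebocyte, 2 of 3 T cell and 1 of 3 macrophage markers were lower, beside 15.7% of all genes. All 3 wound keratins, 4 of 5 neutrophil, 3 of 5 basal keratinocyte, 1 of 2 endothelial and 1 of 2 melanocyte markers were higher there, beside 14% of all genes. With IMQ over DMSO all 5 neutrophil markers were higher in WT, Cre-negative and KO skin. In WT skin all 3 adipocyte markers, 2 of 3 skeletal muscle, 2 of 4 fibroblast, 2 of 4 sebocyte, 1 of 3 T cell and both melanocyte markers were lower with IMQ, and in Cre-negative skin all 3 adipocyte, all 3 skeletal muscle and 2 of 4 sebocyte markers were lower. Within KO skin 2 of 3 macrophage and 2 of 4 fibroblast markers were higher with IMQ and 1 of 3 adipocyte markers was lower. The part of these shifts in the levels of the 10 genes was not tested.

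The rest of the pathway was described by 46 other genes in 4 lists, all of which were tested. In KO DMSO over Cre-negative DMSO skin 8 of 46 were higher and 14 lower, beside 14% and 15.7% of all genes, with a median log2 fold change of -0.39 beside -0.06 for all genes. In KO IMQ over Cre-negative IMQ skin 5 were higher and 22 lower, beside 11.6% and 6.33% of all genes, with a median of -1.24 beside 0.02. With IMQ over DMSO 14 rose and 3 fell in WT skin, beside 9.59% and 11.8% of all genes. In Cre-negative skin 12 rose and 3 fell, beside 8.15% and 10.1%, and in KO skin 3 rose and 8 fell, beside 8.56% and 2.52%. The response was lower in KO than in Cre-negative skin for 16 and higher for 5, beside 9.63% and 14% of all genes. Of 98 calls that the naming rule picked, 45 were kept under every alternative. Each gene named below is among those 45 in the comparison it is named for, unless stated otherwise.

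Among 10 genes of fatty acid elongation and activation, 0 were higher and 5 lower in KO DMSO over Cre-negative DMSO skin, beside 14% and 15.7% of all genes, and likewise 0 and 5 in KO IMQ over Cre-negative IMQ skin, beside 11.6% and 6.33%. Fa2h, the fatty acid 2-hydroxylase, had 0.764, 0.0971 and 0.0282 CPM in KO DMSO skin, 5 reads in all, against 109, 123 and 70.1 CPM in Cre-negative DMSO skin, a log2 fold change of -9.61 ± 1.23 (adjusted p = 0.000112). Elovl5, an elongase of polyunsaturated fatty acids, had 8.92, 16.5 and 32.7 CPM in KO DMSO skin, against 204, 261 and 157 CPM in Cre-negative DMSO skin (-3.39 ± 0.53, adjusted p = 0.000470). It also fell with IMQ over DMSO in WT skin, at -2.16 ± 0.61, and in Cre-negative skin, at -1.95 ± 0.58. These falls passed the threshold but were not kept under every alternative. Elovl1, an elongase of saturated very long chains, was not among them; it rose in WT IMQ over WT DMSO skin, with 1066 and 527 CPM in WT IMQ skin, against 191 and 132 CPM in WT DMSO skin (2.30 ± 0.43, adjusted p = 0.00302). Tecr, the reductase of the elongation cycle, was lower in KO IMQ than in Cre-negative IMQ skin (-1.83 ± 0.33, adjusted p = 0.00298).

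Among 13 genes of sphingoid base and ceramide synthesis, 5 were higher and 4 lower in KO DMSO over Cre-negative DMSO skin, and 3 higher and 6 lower in KO IMQ over Cre-negative IMQ skin, to be read beside the same shares of all genes, 14% and 15.7% without and 11.6% and 6.33% with imiquimod. Of the other ceramide synthases listed, Cers4 and Cers5 went against Cers3 in KO DMSO skin. Cers6, also listed, was not picked by the naming rule and is not described here. Cers2, named here outside the naming rule, had 25.0, 71.2 and 46.0 CPM in KO DMSO skin, overlapping the 31.9, 34.5 and 42.3 CPM in Cre-negative DMSO skin. Cers4 had 5.60, 9.32 and 4.17 CPM in KO DMSO skin, against 370, 372 and 194 CPM in Cre-negative DMSO skin (log2 fold change -5.62 ± 0.51, adjusted p = 8.90e-06). Cers5 had 88.1, 47.0 and 50.5 CPM in KO DMSO skin, against 411, 430 and 382 CPM in Cre-negative DMSO skin (-2.73 ± 0.36, adjusted p = 0.000142). Its fall was not particular to KO skin, as Cers5 also fell in Cre-negative IMQ over Cre-negative DMSO skin (-2.64 ± 0.42, adjusted p = 0.00107). Sptssb, a small subunit of serine palmitoyltransferase, had 10.7, 26.2 and 15.4 CPM in KO DMSO skin and 0 reads in Cre-negative DMSO skin, at least 290-fold higher against a floor of 3 counts over the group. Sptlc3, a catalytic-core subunit of the same enzyme, was lower in KO IMQ than in Cre-negative IMQ skin (-3.90 ± 0.53, adjusted p = 0.000503). The desaturases Degs1 and Degs2 rose in Cre-negative IMQ over Cre-negative DMSO skin, by 2.31 ± 0.39 and 3.66 ± 0.65 (adjusted p = 0.00171 and 0.00212).

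Among 14 genes of glucosylation, export and extracellular processing, 2 were higher and 2 lower in KO DMSO over Cre-negative DMSO skin, beside 14% and 15.7% of all genes, and 2 were higher and 6 lower in KO IMQ over Cre-negative IMQ skin, beside 11.6% and 6.33%. Sgms2, a sphingomyelin synthase, had 103 and 75.2 CPM in KO IMQ skin, against 1.78, 7.47 and 6.26 CPM in KO DMSO skin and 5.16 and 4.37 CPM in Cre-negative IMQ skin, and its response to IMQ was higher in KO than in Cre-negative skin by 5.36 ± 0.68 (adjusted p = 0.000397). Smpd1, acid sphingomyelinase, had 44.6 and 65.9 CPM in KO IMQ skin, against 294 and 226 CPM in Cre-negative IMQ skin (-2.23 ± 0.33, adjusted p = 0.000846). It rose with IMQ over DMSO in WT skin by 2.01 ± 0.33 (adjusted p = 0.00139) and in Cre-negative skin by 1.62 ± 0.28 (adjusted p = 0.00194). Acer1, an alkaline ceramidase, and Pla2g2f, a secreted phospholipase of differentiating keratinocytes, were lower in KO IMQ than in Cre-negative IMQ skin, at -4.01 ± 0.70 and -2.67 ± 0.41 (adjusted p = 0.00235 and 0.00116).

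Among 9 other lipoxygenases, hydrolases and the sterol sulfotransferase Sult2b1, 1 was higher and 3 lower in KO DMSO over Cre-negative DMSO skin, beside 14% and 15.7% of all genes, and 0 were higher and 5 lower in KO IMQ over Cre-negative IMQ skin, beside 11.6% and 6.33%. Sult2b1, which makes cholesterol sulfate, was the higher 1, with 65.7, 38.8 and 67.7 CPM in KO DMSO skin, against 9.06, 11.8 and 8.67 CPM in Cre-negative DMSO skin (log2 fold change 2.54 ± 0.35, adjusted p = 0.000204). It rose with IMQ over DMSO by 2.99 ± 0.44 in WT skin (adjusted p = 0.000761) and by 2.64 ± 0.37 in Cre-negative skin (adjusted p = 0.000502), and its response was lower in KO than in Cre-negative skin by -3.81 ± 0.54 (adjusted p = 0.000933). Alox12e, an epidermal lipoxygenase of mice, had 5 reads in all 3 KO DMSO libraries, against 104, 150 and 194 CPM in Cre-negative DMSO skin (-10.39 ± 1.24, adjusted p = 7.42e-05). It also fell in Cre-negative IMQ over Cre-negative DMSO skin (-6.46 ± 1.15, adjusted p = 0.00213). Its fall in WT IMQ over WT DMSO skin, at -3.74 ± 1.01, passed the threshold but was not kept under every alternative. Alox8 had 0.761 and 1.06 CPM in KO IMQ skin, against 161 and 179 CPM in Cre-negative IMQ skin (-7.54 ± 1.15, adjusted p = 0.00104). Ephx3, an epoxide hydrolase that acts on oxidised linoleate, had 15.1 and 22.9 CPM in KO IMQ skin, against 108 and 95.3 CPM in Cre-negative IMQ skin (-2.42 ± 0.40, adjusted p = 0.00166). The sebocyte and suprabasal marker sums, given above, were lower in the same KO libraries, and their part in the changes of these 4 lists was not tested.

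**Figure D4:**
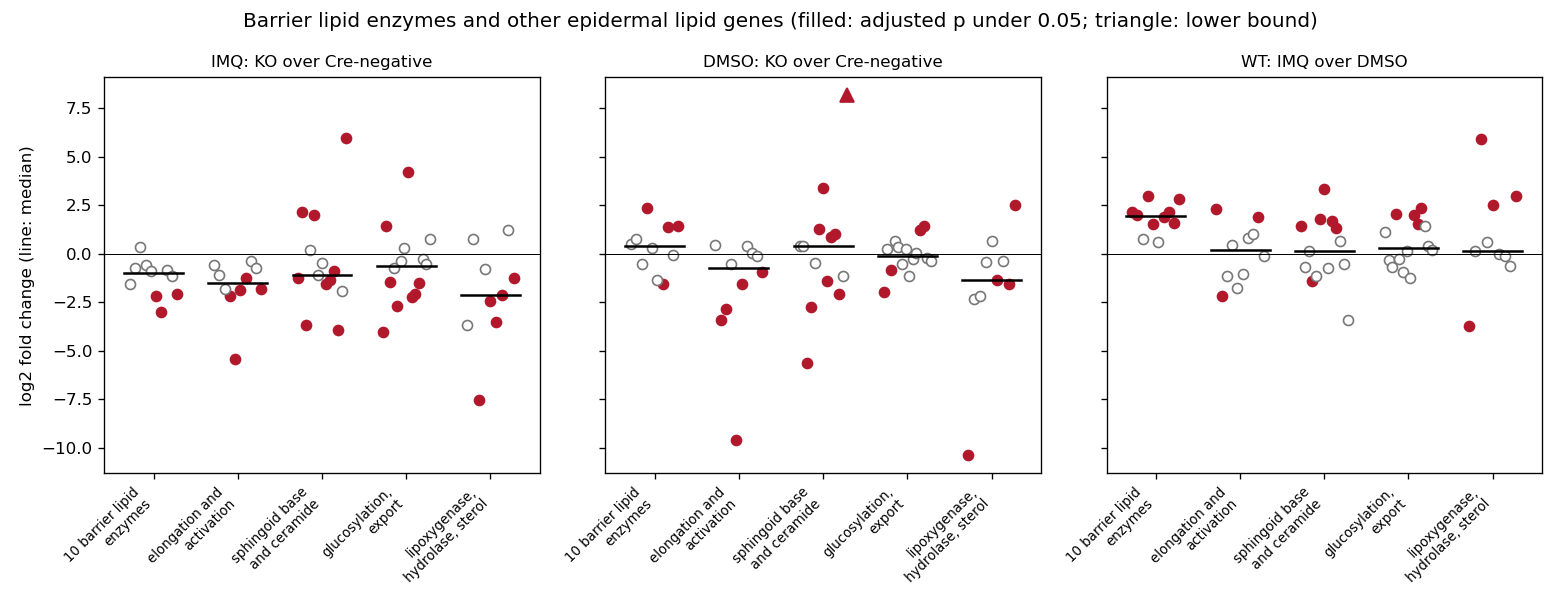
Log2 fold changes of the 10 barrier lipid genes (labelled enzymes) and of the 4 lists in 3 comparisons, each point 1 gene, filled where the adjusted p is under 0.05, with the line at the median and a triangle where the value is a lower bound. The 10 genes have medians of -1.0 in KO over Cre-negative skin with IMQ, 0.42 with DMSO and 1.95 in WT skin with IMQ over DMSO.

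The 10 genes did not share 1 pattern. After centring each gene on its mean over the 14 libraries, the root mean square difference in log2 CPM was smallest for Cyp4f39 and Alox12b, at 0.386, and largest for Elovl4 and Cers3, at 1.69. Alox12b and its neighbour Aloxe3 differed by 0.789. Cers3, Sdr9c7 and Nipal4 differed from each other by 0.578 to 0.617. Nipal4 was nearer to Alox12b, at 0.398, and to Cyp4f39, at 0.455, than to Cers3 or Sdr9c7. By the same measure over all genes with an established symbol and a mean of at least 5 CPM, 9383 other genes, or 9384 for Lipn, the closest to Cers3 were Fchsd1 at 0.219, Fam43a at 0.305 and Sult2b1 at 0.324. Closest to Sdr9c7 was Cnfn, which encodes cornifelin of the cornified envelope, at 0.303, closest to Nipal4 was Gtf2f1 at 0.228, and closest to Elovl4 was Srd5a1, a steroid reductase, at 0.427. These distances describe 14 libraries that share depth, scaling and cell makeup, and they carry no test.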

How the data were processed

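RNA of 14 mouse skin libraries was measured with 3′ tag sequencing. The authors deposited 1 table of raw read counts per gene, all of them whole. Its length column, deposited as another unit (summed exon bases), was not used for levels. The tools STAR, featureCounts and DESeq2, and the builds GRCm39 and GRCm38, appear in the submitters' processing notes with neither role nor version. How strand and multi-mapping reads were handled is not given in the sources used here. Exon positions in the deposited table are those of GRCm39, and promoter windows are on GRCm38.p6.

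Groups came from the titles of the libraries. Genes were kept with filterByExpr (16027 of 56953), scaled by TMM and fitted with edgeR 4.0.16 (R 4.3.3) in a single quasi-likelihood model of 6 groups and 14 libraries. Adjusted p-values are Benjamini-Hochberg over all genes tested in each of 8 comparisons, with a threshold of 0.05. Fold changes are on the log2 scale, ± is a standard error derived from the F test, and levels are CPM with TMM scaling. Log2 CPM for distances used a prior count of 2. The labels name no animals, so p-values measure the spread between these samples, which may be technical. No 2 libraries of a group agreed within sampling noise. Same-numbered libraries had deviations from their group means correlated over 0.1 in 11 of 31 pairs. In KO DMSO and Cre-negative DMSO skin all 3 pairs passed that mark, at 0.260, 0.102 and 0.166, so that comparison was also read with the replicate number as a block, which changed no call of the 10 genes there. The other comparisons of 2 groups have 2 such pairs each, too few for that check. A floor of 3 counts over a group stands for 0 reads and covers counting error only.

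The 10 genes and the lists were chosen with earlier results of these data known. Named genes were the 10 in every comparison and, from each list, up to 4 per comparison with the smallest p among those past the threshold whose higher group averaged at least 5 CPM. Like genes were the 3 with the smallest distance. The procedure was also run on simulated counts with large planted changes in 1 group. The outcome is not reported here and is no support for the calls above. Alternatives were other scaling (median-of-ratios, library size alone), no filter or at least 1 CPM in 5 libraries, a replicate block, a sex term, leaving out libraries over 15% 18S RNA, only the groups compared, DESeq2 1.42.0, limma 3.58.1 voom with quality weights, and leaving out each library.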

Additional observations from a re-analysis of the deposited data

Results flagged for a closer look

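Of the 10 genes, 3 had a response to imiquimod that differed between KO and Cre-negative skin by a test of the difference itself (edgeR's quasi-likelihood test, Benjamini-Hochberg over 16027 genes). The difference of log2 fold changes was -2.96 for Cers3 (adjusted p = 0.00163), -3.50 for Sdr9c7 (adjusted p = 0.00260) and -2.23 for Nipal4 (adjusted p = 0.0101). KO IMQ and Cre-negative IMQ libraries were all male, KO DMSO libraries all female and Cre-negative DMSO libraries 2 male and 1 female. With a sex term the call for Nipal4 was lost, at -2.30 with adjusted p = 0.0539. Only Cre-negative DMSO skin held both sexes, so that term rests on its 1 female library beside its 2 male libraries.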

How the results depend on the processing

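Of 24 values past the threshold among the 10 genes, 9 stayed past it under all alternatives (Cers3 in all 5 of its calls, Sdr9c7 in WT and Cre-negative skin with IMQ over DMSO and in the difference of responses, Nipal4 in WT skin), 15 missed it under at least 1, and 0 changed sign. Of the other 56 values, 13 passed under at least 1. The labels do not say that replicate numbers pair the samples. Under a replicate block 4692, 2781, 3488, 3, 3415, 2826, 1263 and 3623 genes were called in KO DMSO over Cre-negative DMSO, KO IMQ over Cre-negative IMQ, KO DMSO over WT DMSO, Cre-negative DMSO over WT DMSO, WT IMQ over WT DMSO, Cre-negative IMQ over Cre-negative DMSO, KO IMQ over KO DMSO and the difference of responses, in place of 4752, 2866, 4107, 0, 3433, 2921, 1776 and 3785, and the only call of the 10 genes that it ended was Nipal4 in Cre-negative IMQ over Cre-negative DMSO skin, at 1.12. In the same order of comparisons, leaving out each library gave 2 to 4, 0 to 3, 1 to 3, 0 to 0, 4 to 6, 2 to 3, 0 to 0 and 2 to 5 calls of the 10 genes, and 3123 to 4294, 796 to 2360, 2054 to 3687, 0 to 188, 1092 to 3531, 1272 to 2238, 339 to 1729 and 1174 to 3733 of all genes. Where a group was left with 1 library, it is assumed to vary like the others. Without the libraries high in 18S RNA the calls of the 10 genes numbered 2, 6, 5, 0, 8, 5, 1 and 6, and those of all genes were 1 in Cre-negative DMSO over WT DMSO and 1762 in Cre-negative IMQ over Cre-negative DMSO. The sex term left 1 of the 10 genes and 1448 of all in KO DMSO over Cre-negative DMSO, 210 of all in KO IMQ over KO DMSO and 1469 in the difference of responses. In each of these it rests on the 1 female Cre-negative DMSO library, in the only group with both sexes. Library size alone left 3 of the 10 in WT IMQ over WT DMSO, and only the groups compared left 5 there, with 1863 of all genes, and gave 1028 in KO IMQ over KO DMSO. For all genes voom called 7297 in KO DMSO over Cre-negative DMSO and 1790 in KO IMQ over Cre-negative IMQ. In Cre-negative DMSO over WT DMSO no filter gave 446, only the groups compared 18, DESeq2 144 and voom 195. Library size alone moved the share of higher calls over all genes to 25.9%, 83.1%, 20.0%, 13.2%, 14.6%, 88.5% and 87.7%, in place of 47.2%, 64.6%, 43.9%, 44.8%, 44.7%, 77.3% and 59.2%, in the order above without Cre-negative DMSO over WT DMSO, with medians of all genes at -0.41, 0.42, -0.51, -0.76, -0.63, 0.12 and 0.84. The sex term moved it to 34.9% in KO DMSO over Cre-negative DMSO and 98.1% in KO IMQ over KO DMSO, the step without libraries high in 18S RNA to 54.3% in KO IMQ over Cre-negative IMQ and 55.1% in Cre-negative IMQ over Cre-negative DMSO, and only the groups compared to 92.4% in KO IMQ over KO DMSO. The cause of these moves was not tested.

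Signs turned only in values short of the threshold. In KO DMSO over Cre-negative DMSO, Cyp4f39 was -0.042 with library size alone, Aloxe3 0.13 with the sex term, and Pnpla1 0.00073 with the sex term, 0.22 without libraries high in 18S RNA and -0.33 to 0.16 when each library was left out. In KO IMQ over Cre-negative IMQ, Aloxe3 was -0.20 without libraries high in 18S RNA and -0.14 to 1.03 with each library left out. In KO DMSO over WT DMSO, Aloxe3 was -0.43 with library size alone. In Cre-negative DMSO over WT DMSO, Aloxe3 was -0.11 with the sex term. In Cre-negative IMQ over Cre-negative DMSO, library size alone gave -0.33 for Elovl4, -0.0048 for Cyp4f39 and -0.21 for Pnpla1. In KO IMQ over KO DMSO, Aloxe3 was 0.14 with library size alone and Lipn 0.054 with the sex term. With each library left out in turn, the log2 fold changes spanned -1.15 to 0.056 for Elovl4, -0.24 to 0.37 for Aloxe3 and -1.05 to 0.52 for Lipn in KO DMSO over WT DMSO, -0.050 to 1.12 for Abca12 and -0.022 to 0.47 for Nipal4 in Cre-negative DMSO over WT DMSO, -0.043 to 1.38 for Elovl4 in WT IMQ over WT DMSO, -0.044 to 0.49 for Elovl4, -0.23 to 1.01 for Cyp4f39, -0.23 to 0.75 for Pnpla1 and -0.48 to 1.63 for Abca12 in Cre-negative IMQ over Cre-negative DMSO, and -1.85 to 0.014 for Elovl4, -1.11 to 0.18 for Alox12b, -0.33 to 0.16 for Aloxe3 and -1.32 to 0.097 for Lipn in KO IMQ over KO DMSO.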
